A study of Homo sapiens with 12 samples.

Results

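The long intergenic noncoding RNAs (lincRNAs) that K562 cells expressed at a measurable level were described across all 4 conditions of the RNA-seq experiment. They were selected on the raw counts themselves: the gene carried the lincRNA label in the deposited count table and its mean raw count over the 12 libraries was at least 200. Of 7629 lincRNA genes in the table, 220 reached that threshold. GAS5, BGLT3 and the members of the SNHG family, 5 genes in all, were left out by name. The remaining 215 genes, of 58735 listed, are the expressed lincRNAs. The choice rested on the mean over all libraries and not on any difference between conditions. For 35 genes, however, the mean of the other 9 libraries fell under the threshold when 1 group was left out. In some cases this held for more than 1 group. Such genes had to be higher in the group left out, though possibly by little where the mean was close to 200. Counts of calls in each comparison are also given for the remaining 180. GMDS-DT (mean count 200.8) and AL139042.1 (200.9) lay just inside the threshold, and LINC01090 (198.3) and AL118558.3 (197.9) just outside.

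LincRNAs are transcripts of RNA polymerase II that are capped, usually spliced and polyadenylated like messenger RNAs but have no long open reading frame, and their genes lie between protein-coding genes. A few have known roles: MALAT1 and NEAT1 belong to nuclear bodies, NORAD binds PUMILIO proteins in the cytoplasm, others regulate neighbouring genes, and host transcripts are cut to release microRNAs. In blood cell precursors, noncoding transcripts as a class are known for strong lineage and stage specificity, and for most of the genes named here no function is established.

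K562 cells are an established human erythroleukemia line driven by the fusion kinase BCR-ABL1. Nilotinib is a tyrosine kinase inhibitor of BCR-ABL1, and hemin, the oxidised form of heme, induces erythroid differentiation of K562 cells. Pre-treatment lasted 24 h, with DMSO at 0.1% as vehicle only (DMSO) or with 0.1 µM nilotinib in it, and cells were collected at its end (mock, 0 h) or 24 h after hemin was added at 50 µM. Each of the 4 groups (mock DMSO and hemin DMSO, mock nilotinib and hemin nilotinib) had 3 libraries, so hemin and the additional 24 h of culture cannot be told apart. Mock nilotinib cells were collected 24 h after nilotinib was added and hemin nilotinib cells 48 h after. Nilotinib effects with and without hemin therefore differ in this time too, which cannot be told apart from hemin. All libraries came from 1 cell line, and the p-values measure the spread between its replicates.

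The libraries held between 33457078 and 50506990 counts. Levels are given as counts per 1000000 (CPM) after TMM scaling, a correction for library composition, and always in the order of replicates 1, 2 and 3. The TMM factors were lowest in the hemin DMSO libraries, 0.844 to 0.943, against 0.985 to 1.11 in the other 9. Of 11 K562 markers examined, 10 lay at 10 CPM or above in every library, with only HBE1 below (0.569 to 3.06 CPM), and CD3E, MS4A1 and VWF, markers of T cells, B cells and endothelium, stayed under 1 CPM everywhere. EPCAM and KRT8, which are used as epithelial markers, were at 10 CPM or above in every library. The part of other cells in the lincRNA values was not tested.

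The expressed lincRNAs lay on 23 chromosomes, with the largest number, 20, on chromosome 1. Their median exonic length was 2618 bases in a median of 3 exon blocks, and 61 genes were a single block. Clone-based names, which are given to genes with no assigned symbol, covered 105 of them, a LINC number 59, and a name after a neighbouring gene (AS, DT or OT) 23. Exons of 69 overlapped another gene on either strand (31 on the same strand, 56 on the opposite one). For 19 genes the overlap took more than 20% of the exonic bases. Since no source used here states whether counting used strand, reads of these genes and of their overlapping partners cannot be told apart. The median mean count was 439.3, and 49 genes had at least 1000.

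Together the expressed lincRNAs took a small and condition-dependent part of the transcriptome. In mock DMSO they held 0.756%, 0.654% and 0.622% of all gene counts in the 3 libraries, and in mock nilotinib 0.919%, 0.819% and 0.820%. Under hemin the DMSO libraries fell to 0.473%, 0.359% and 0.478%, and the nilotinib libraries held 0.811%, 0.981% and 1.19%. The hemin DMSO libraries were the lowest 3 of the 12 and did not overlap with any other group, while the nilotinib groups with and without hemin overlapped. As group means the shares were 0.677% ± 0.070, 0.853% ± 0.058, 0.437% ± 0.067 and 0.992% ± 0.188 (SD, n = 3 each). An exact permutation test of 3 against 3 libraries cannot give a two-sided p below 0.1, so the shares were not called. The 5 genes with most counts, AC079466.1, NEAT1, NORAD and MALAT1 among them, held 39.3% of the lincRNA counts on average. Without these 5 the group means were 0.466% ± 0.035, 0.487% ± 0.006, 0.283% ± 0.027 and 0.546% ± 0.110 (SD, n = 3 each), and the hemin DMSO group was again the lowest.

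The same low group was seen gene by gene. The mean level was lowest in hemin DMSO for 129 of the 215 lincRNAs and highest in hemin nilotinib for 91. For 92 of them (42.8%) all 3 hemin DMSO libraries lay below all 9 others, a pattern that 19.6% of all 20821 tested genes had. In the opposite direction, 13 lincRNAs (6.05%) had all 3 hemin DMSO libraries above the 9 others, against 19.6% of all genes. The choice of genes could favour those low in hemin DMSO. Without mock DMSO, mock nilotinib or hemin nilotinib 11, 12 and 21 genes fell under the count threshold, and without hemin DMSO 4. The counts of this paragraph were not taken for the 180 genes at the threshold without any single group. Because of this spread, the count threshold was reached in all 4 groups by 103 lincRNAs only. In hemin DMSO 88 had a mean count under 200, against 28, 28 and 13 in mock DMSO, mock nilotinib and hemin nilotinib. These data come from bulk RNA, in which fewer cells with a transcript and less of it per cell cannot be told apart.

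Nilotinib raised most of the expressed lincRNAs in hemin-treated cells. Of 215 genes, 135 were higher and 30 lower in hemin nilotinib than in hemin DMSO (edgeR quasi-likelihood test, Benjamini-Hochberg adjusted p under 0.05 over all 20821 genes tested), which is 76.7% called. Over all tested genes 64.2% were called, 32.4% higher and 31.8% lower, so the share of called genes was closer to the background than the direction was. The median log2 fold change was 1.04 over the lincRNAs, against 0.02 over all tested genes and -0.06 over the 10042 protein-coding genes with the same count threshold. The change was at least 2-fold in 110 of the genes that rose and 21 of those that fell. Among the 180 genes at the threshold without any single group, 110 were higher and 22 lower, with a median of 0.93. A further scaling without composition factors shifted the median of all genes from 0.02 to 0.20. The lincRNA median stood 1.02 above that of all genes under both scalings. A change of scaling moves all genes by nearly the same amount, so this distance cannot test the scaling.

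The largest rise belonged to AL138900.3, a 2-block transcript at chr1:157280716-157283068 with no assigned function. Its level was 1.99, 1.18 and 2.08 CPM in the hemin DMSO libraries and 32.8, 45.5 and 50.6 CPM in those with nilotinib (log2 fold change 4.61 ± 0.23 (SE), adjusted p = 1.9e-10). The mock libraries stood at 6.93, 5.27 and 5.997 CPM with DMSO and 41.5, 43.4 and 40.7 CPM with nilotinib (log2 fold change 2.79 ± 0.20 (SE), adjusted p = 2.3e-08). Both nilotinib groups thus lay above both DMSO groups without overlap, and hemin DMSO lay below mock DMSO.

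HRAT92 starts 95 bases from PDGFA, the gene of platelet-derived growth factor subunit A, and runs away from it on the opposite strand. It had 0.797, 0.415 and 0.685 CPM in the hemin DMSO libraries and 13.7, 14.7 and 15.2 CPM in those with nilotinib (log2 fold change 4.51 ± 0.24 (SE), adjusted p = 3.5e-10). Without hemin it went from 3.54, 4.05 and 4.65 to 18.3, 18.7 and 23.5 CPM (log2 fold change 2.30 ± 0.20 (SE), adjusted p = 1.6e-07). PDGFA itself had mean levels of 4.59 ± 0.728 CPM and 5.22 ± 2.24 CPM (SD, n = 3) under hemin and was not called (log2 fold change 0.18, adjusted p = 0.58). The lincRNA therefore moved at a start region whose coding partner was not called.

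SLC2A1-AS1 starts 127 bases from SLC2A1, which encodes the glucose transporter GLUT1, again in the opposite orientation. The lincRNA measured 4.72, 3.67 and 4.67 CPM in the hemin DMSO libraries and 34.3, 74.00 and 106 CPM in those with nilotinib (log2 fold change 4.03 ± 0.31 (SE), adjusted p = 2.1e-08). SLC2A1 mRNA had 195 ± 17.97 CPM and 1734 ± 210.4 CPM (SD, n = 3) in the same groups (log2 fold change 3.15, adjusted p = 5.9e-10). Here both partners rose, and both did so without hemin as well: SLC2A1-AS1 from 6.73, 6.46 and 8.21 to 44.5, 47.99 and 58.4 CPM (log2 fold change 2.82 ± 0.29 (SE), adjusted p = 1.2e-06) and SLC2A1 by 1.86 on the log2 scale. Hemin nilotinib replicate 1 was the lowest of its group for SLC2A1-AS1, and still lay above every hemin DMSO library.

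AC106798.1, at chr5:67699429-67902600, and AC092490.1, at chr12:8788257-8795789, complete the 5 largest rises. Without the hemin nilotinib libraries both fell under the count threshold, so their rises were favoured by the choice of genes. AC106798.1 also fell under it without the mock nilotinib libraries. AC106798.1 had 0.674, 0.734 and 0.609 CPM in the hemin DMSO libraries and 9.92, 12.9 and 11.03 CPM in those with nilotinib (log2 fold change 4.07 ± 0.26 (SE), adjusted p = 3.1e-09). AC092490.1 had 0.797, 1.34 and 0.888 and 8.94, 22.1 and 20.8 CPM in the same order of groups (log2 fold change 4.10 ± 0.43 (SE), adjusted p = 5.3e-07). Neither was called for hemin in cells without nilotinib (adjusted p = 0.092 and 0.43), but AC106798.1 was without mock DMSO replicate 1 or 2 (down to 0.0466).

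The 5 largest falls with nilotinib in hemin-treated cells were of LINC00861, AC011912.1, AC103591.4, AC093766.1 and AF127936.1, none of which has an established function. LINC00861, at chr8:125922308-125951249, had 113, 51.6 and 82.6 CPM in the hemin DMSO libraries and 2.93, 5.71 and 7.34 CPM in those with nilotinib (log2 fold change -3.95 ± 0.38 (SE), adjusted p = 2.4e-07). In mock cells it had 366, 199 and 148 CPM under DMSO and 4.57, 2.65 and 3.95 CPM under nilotinib (log2 fold change -5.99 ± 0.42 (SE), adjusted p = 1.7e-08). No nilotinib library reached 10 CPM and no DMSO library was under 50, whether or not hemin was present.

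AF127936.1 and AF127936.2 lie 7847 bases apart on the same strand of chromosome 21, and their nearest tested coding gene is SAMSN1, which encodes an adaptor protein of blood cells. Both lincRNAs reached the count threshold only through mock DMSO, where they were high. AF127936.2 had 30.9, 29.4 and 25.05 CPM in mock DMSO and 1.14, 0.758 and 1.10 CPM in mock nilotinib (log2 fold change -4.82 ± 0.42 (SE), adjusted p = 1.7e-07). AF127936.1 had 15.6, 13.4 and 13.9 and 0.0761, 0.467 and 0.404 CPM (log2 fold change -5.52 ± 0.47 (SE), adjusted p = 1.5e-07). With hemin the log2 fold changes were -2.63 and -2.92. SAMSN1 mRNA was also lower with nilotinib, by -2.24 without hemin (adjusted p = 3.1e-06) and -1.05 with it (adjusted p = 0.0014), on the log2 scale. All 3 transcripts of the region thus had lower levels with nilotinib in both settings.

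AC093766.1, at chr4:138773550-138801639, had 37.4, 35.1 and 31.2 CPM in mock DMSO and 1.04, 0.758 and 1.01 CPM in mock nilotinib (log2 fold change -5.20 ± 0.32 (SE), adjusted p = 4.5e-09). Under hemin it had 9.41, 25.02 and 16.03 and 1.15, 1.73 and 1.496 CPM (log2 fold change -3.52 ± 0.30 (SE), adjusted p = 5.3e-08), so that nilotinib and DMSO libraries did not overlap in either setting. KAZN-AS1 lies within KAZN, the gene of the cell-junction protein kazrin, on the opposite strand. KAZN-AS1 reached the count threshold only through mock DMSO, where it was high. It went from 18.3, 14.5 and 13.2 to 0.888, 1.02 and 1.30 CPM without hemin (log2 fold change -3.84 ± 0.31 (SE), adjusted p = 6.4e-08) and from 8.40, 5.74 and 4.97 to 1.35, 2.53 and 2.87 CPM with it (log2 fold change -1.49 ± 0.28 (SE), adjusted p = 2.1e-04). KAZN mRNA was lower in both settings too, with log2 fold changes of -1.66 and -0.94 (adjusted p = 2.6e-07 and 3.8e-05).

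Without hemin fewer lincRNAs were called with nilotinib, and again more were higher than lower. In mock nilotinib 92 lincRNAs were higher and 32 lower than in mock DMSO, 57.7% of the 215, where 42.5% of all tested genes were called (20.7% higher, 21.8% lower). The median log2 fold change was 0.39 over the lincRNAs and 0.00 over all tested genes. Of the 180 genes at the threshold without any single group, 76 were higher and 25 lower. The range ran from -5.99 (LINC00861) to 3.25 (AC106798.1). The largest rises were of AC106798.1, SLC2A1-AS1, AL138900.3, LINC00858 and AC092490.1, 4 of which are also among the 5 largest rises with hemin. LINC00858 had 3.69, 3.34 and 2.77 CPM in mock DMSO and 21.7, 26.4 and 17.99 CPM in mock nilotinib (log2 fold change 2.75 ± 0.20 (SE), adjusted p = 3.0e-08), and every nilotinib library was above every DMSO library.

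The comparisons of nilotinib with and without hemin share no library. Between them, 81 lincRNAs (37.7%) were higher in both and 20 (9.30%) lower in both, beside 15.5% and 14.8% of all tested genes. These joint counts were not taken for the 180 genes at the threshold without any single group. With hemin only, 50 were called higher and 9 lower, and without hemin only 10 higher and 8 lower. Opposite calls were made for 5 genes, a share near that of all tested genes. Higher with hemin and lower without it were 4 (1.86%, beside 1.33% of all tested genes). The reverse held for 1 (0.465%, beside 0.86%). LINC01694, AC005307.1, LINC01667 and LINC00997 were lower with nilotinib in mock cells and higher with nilotinib in hemin-treated cells, and AL365226.2 was the reverse. The calls in mock cells of LINC01667 and AL365226.2 were lost in 3 and 8 of 12 omissions of 1 library (adjusted p up to 0.0667 and 0.227), and the call of AL365226.2 under hemin in 2. LINC00997, at chr7:32760279-32762924, had 13.2, 13.3 and 12.4 CPM in mock DMSO, 6.77, 7.76 and 7.21 in mock nilotinib, 4.57, 2.68 and 2.74 in hemin DMSO and 11.5, 11.8 and 10.9 in hemin nilotinib. Its 4 groups did not overlap, and its log2 fold changes were -0.84 (adjusted p = 0.0025) without hemin and 1.78 (adjusted p = 1.5e-06) with it.

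**Figure D1:**
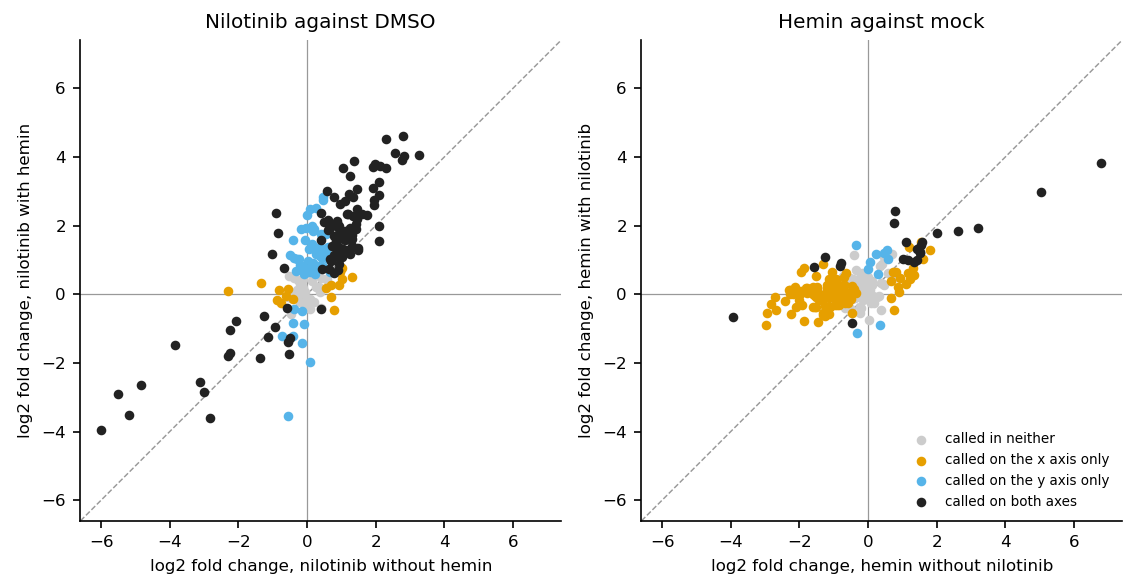
Log2 fold change of each of the 215 expressed lincRNAs for nilotinib against DMSO (left, without hemin on the x axis and with hemin on the y axis) and for hemin against mock (right, without nilotinib on the x axis and with nilotinib on the y axis); colours mark in which comparison a gene was called and the dashed line marks equal change. On the left 81 genes were called higher on both axes, and on the right 102 genes called lower without nilotinib were not called with it. Most of the 5796 tested genes called lower without nilotinib were likewise not called with it.

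More lincRNAs were lower than higher with hemin in cells without nilotinib. Against mock DMSO, 108 were lower and 34 higher in hemin DMSO, 66.0% of the 215, beside 53.6% of all tested genes (27.8% lower, 25.7% higher). The median log2 fold change was -0.49, against -0.05 over all tested genes. Without composition factors the medians were -0.73 and -0.29, and 27 lincRNAs were called higher and 124 lower. The distance between the medians was -0.44 under both scalings. It cannot test the scaling, since a change of scaling moves all genes by nearly the same amount. Of the 180 genes at the threshold without any single group, 26 were higher and 89 lower under TMM scaling. The shift of all genes applies to each fold change given here for hemin without nilotinib.

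AC005307.1 and AC079466.1, both on chromosome 19 and 775831 and 590092 bases from their nearest coding gene UQCRFS1, were among the largest falls. AC079466.1, the lincRNA with the highest mean count, had 654, 603 and 523 CPM in mock DMSO and 81.3, 100.2 and 69.8 CPM in hemin DMSO (log2 fold change -2.82 ± 0.19 (SE), adjusted p = 2.0e-08). In the nilotinib groups it had 1807, 1395 and 1349 CPM without hemin and 1527, 1089.6 and 1093 CPM with it, and hemin made no called difference there (log2 fold change -0.30 ± 0.18 (SE), adjusted p = 0.37). AC005307.1 had 79.2, 75.9 and 64.8 CPM in mock DMSO, 4.14, 4.88 and 5.48 in hemin DMSO (log2 fold change -3.92 ± 0.21 (SE), adjusted p = 2.8e-09), 41.8, 37.3 and 39.4 in mock nilotinib and 33.9, 19.8 and 20.8 in hemin nilotinib. In both genes the hemin DMSO libraries were the 3 lowest of the 12.

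LINC00342, at chr2:95807118-95816215, had 8.92, 8.75 and 7.82 CPM in mock DMSO and 1.10, 0.989 and 1.75 CPM in hemin DMSO (log2 fold change -2.71 ± 0.32 (SE), adjusted p = 3.6e-06). AC102953.2, a single-block transcript at chr7:1464497-1467522, went from 9.66, 11.9 and 12.6 to 0.919, 1.15 and 2.23 CPM (log2 fold change -2.97 ± 0.29 (SE), adjusted p = 5.4e-07). AL691447.2, at chr9:94332476-94360948, went from 19.4, 18.5 and 14.3 to 2.05, 2.49 and 2.23 CPM (log2 fold change -2.94 ± 0.24 (SE), adjusted p = 7.6e-08). AL691447.2 reached the count threshold only through mock DMSO, where it was high. Nilotinib lowered AL691447.2 too in mock cells, to 3.58, 3.82 and 3.11 CPM, as it did AC005307.1, and for AL691447.2 the hemin nilotinib libraries overlapped with both groups given a single agent.

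Among the 34 lincRNAs called higher with hemin, the largest rises were of AC103591.4, MIR29B2CHG, MIR22HG, AC011912.1 and LINC01089. AC103591.4, MIR29B2CHG and AC011912.1 reached the count threshold only through hemin DMSO, where their mean counts were 1377, 1030 and 644 against 54.0, 125.8 and 74.3 over the other 9 libraries, so that they were members because they were high there. AC103591.4 lies within the coding gene GIPC2 on the opposite strand, at chr1:78022565-78024861. It had 0.288, 0.501 and 0.288 CPM in mock DMSO and 42.96, 30.9 and 44.7 CPM in hemin DMSO (log2 fold change 6.80 ± 0.53 (SE), adjusted p = 5.6e-08). In mock nilotinib it had 0.254, 0.146 and 0.317 CPM and in hemin nilotinib 1.01, 2.77 and 6.36 CPM (log2 fold change 3.81 ± 0.55 (SE), adjusted p = 0.0015). GIPC2 mRNA had 0.0199 ± 0.0183 CPM and 2.27 ± 0.641 CPM (SD, n = 3) in mock DMSO and hemin DMSO (adjusted p = 1.1e-05). Without nilotinib both transcripts of the locus were thus near 0 in mock cells and higher with hemin. With nilotinib GIPC2 was not called for hemin (log2 fold change 1.29, adjusted p = 0.39).

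AC011912.1, a single-block transcript at chr15:55171378-55176739, had 2.18, 3.98 and 2.96 CPM in mock DMSO and 20.01, 16.4 and 19.4 CPM in hemin DMSO (log2 fold change 2.62 ± 0.40 (SE), adjusted p = 5.1e-05). Mock nilotinib had 0.330, 0.408 and 0.548 CPM and hemin nilotinib 0.431, 1.29 and 2.78 CPM (log2 fold change 1.83 ± 0.49 (SE), adjusted p = 0.039). The nilotinib libraries lay below the DMSO libraries in mock and in hemin-treated cells, and the hemin call with nilotinib was lost in 7 of the 12 omissions of 1 library (adjusted p up to 0.196). LINC01089 had 20.9, 17.8 and 17.5 CPM in mock DMSO and 73.9, 58.1 and 94.9 CPM in hemin DMSO (log2 fold change 2.01 ± 0.35 (SE), adjusted p = 1.8e-04), and 39.6, 34.2 and 39.8 and 50.6, 109 and 228 CPM in the nilotinib groups (log2 fold change 1.77 ± 0.35 (SE), adjusted p = 0.01). Without mock nilotinib replicate 2 the latter call was lost (adjusted p = 0.0567). Of its exonic bases, 41.7% overlap other genes on the same strand and 48.7% on the opposite strand, so its counts may belong to either.

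With nilotinib present, hemin changed few lincRNAs. In hemin nilotinib 29 were higher and 4 lower than in mock nilotinib, 15.3% of the 215, beside 5.80% of all tested genes (3.52% higher, 2.28% lower). The median log2 fold change was 0.13, and 19 of the 180 genes at the threshold without any single group were higher and 4 lower. Between the hemin comparisons, which share no library, 17 lincRNAs (7.91%) were higher in both, beside 2.55% of all tested genes. This joint count was not taken for those 180 genes. Of the 108 that fell without nilotinib, 102 were not called with it. Most tested genes did likewise: of 5796 that fell without nilotinib, 296 were called lower and 42 higher with it. KAZN-AS1, MIR4458HG, FAM157C and AL031123.2 were lower with hemin in DMSO and higher with hemin in nilotinib, and SRP14-AS1 and AC005307.1 were lower in both. With 1 library left out at a time, the calls with nilotinib were lost in 10, 6, 8, 10, 1 and 9 of 12 cases for these 6 genes in that order. Replicate numbers were taken as pairs between mock nilotinib and hemin nilotinib, and with the number as a block 32 were higher and 10 lower.

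The counts of this comparison rested on single libraries. Leaving out hemin nilotinib replicate 1 gave 60 higher and 11 lower, and leaving out replicates 2 or 3 of that group gave 8 or 9 higher. Leaving out mock nilotinib replicates 1, 2 or 3 gave 14, 5 or 7 higher. Leaving out mock DMSO replicates 2 or 3 or hemin DMSO replicate 3, which enter only through the shared spread, gave 17, 19 and 19. The count of lower genes ran from 0 to 11 over all 12 omissions.

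LINC00942 and LINC00346 rose with hemin more in the presence of nilotinib than without it. LINC00942 reached the count threshold only through hemin nilotinib, where it was high. LINC00942, at chr12:1500525-1504424, had 2.36, 3.12 and 1.73 CPM in mock nilotinib and 8.80, 17.7 and 12.6 CPM in hemin nilotinib (log2 fold change 2.44 ± 0.28 (SE), adjusted p = 3.1e-04). In DMSO it had 2.41, 2.79 and 2.35 and 5.33, 3.96 and 3.73 CPM (log2 fold change 0.79 ± 0.27 (SE), adjusted p = 0.023). LINC00346, at chr13:110863987-110870251, had 10.3, 14.3 and 11.4 and 22.8, 62.1 and 65.7 CPM in the nilotinib groups (log2 fold change 2.07 ± 0.30 (SE), adjusted p = 0.0016) and 11.4, 10.6 and 10.4 and 22.6, 12.7 and 19.2 CPM in the DMSO groups (log2 fold change 0.75 ± 0.30 (SE), adjusted p = 0.043). The difference between the hemin effects, which equals the difference between the nilotinib effects, was 1.65 ± 0.39 (SE) for LINC00942 (adjusted p = 0.0047) and 1.32 ± 0.42 for LINC00346 (adjusted p = 0.026). The hemin call without nilotinib was lost in 3 of 12 omissions of 1 library for LINC00942 (adjusted p up to 0.0973) and in 9 for LINC00346 (up to 0.163). The difference lost its call for LINC00346 without hemin DMSO replicate 2, hemin nilotinib replicate 2 or mock nilotinib replicate 1 (up to 0.0717). In each gene all 3 hemin nilotinib libraries were above all 9 others, by a small margin in LINC00346 replicate 1.

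The 4 lincRNAs that were lower with hemin in nilotinib-treated cells changed less. AC008555.5 had 8.37, 15.9 and 15.3 CPM in mock nilotinib and 5.66, 5.96 and 6.54 CPM in hemin nilotinib (log2 fold change -1.12 ± 0.31 (SE), adjusted p = 0.046). SRP14-AS1, which starts 123 bases from the signal recognition particle gene SRP14 on the opposite strand, had 17.5, 19.4 and 23.3 and 10.4, 10.5 and 12.9 CPM (log2 fold change -0.84 ± 0.16 (SE), adjusted p = 0.0086). SRP14-AS1 lost its call only without mock nilotinib replicate 3 (adjusted p = 0.0589), and AC008555.5 in 8 of 12 omissions of 1 library (up to 0.183). LINC00467 and AC005307.1, each of which lost its call in 9 omissions, had log2 fold changes of -0.90 and -0.67. The groups did not overlap for any of the 4.

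The nilotinib effect differed between hemin-treated and mock cells for 100 lincRNAs. These cells differed both in hemin and in the time after nilotinib was added, which cannot be told apart. By the interaction term, nilotinib shifted 90 upward and 10 downward under hemin relative to mock, 46.5% of the 215, beside 30.1% of all tested genes (17.1% upward, 13% downward). For the 180 genes at the threshold without any single group the counts were 72 and 8. The largest upward differences were of AC005307.1, LINC00342, LINC00997, AF127936.1 and AC079466.1, between 2.53 and 3.25 on the log2 scale. The largest downward ones were of AC103591.4 (-2.98), MIR29B2CHG (-2.06), MIR22HG (-1.28), LINC00467 (-1.24) and APTR (-1.21). The first 3 of these lost their call without mock nilotinib replicate 3 (AC103591.4, adjusted p = 0.0517), mock nilotinib replicate 1 (MIR29B2CHG, adjusted p = 0.052) or mock DMSO replicate 1 (MIR22HG, adjusted p = 0.0505). APTR, named for its regulation of the cell cycle inhibitor p21, had 10.2, 9.06 and 9.40 CPM in mock DMSO, 6.92, 6.33 and 6.72 in mock nilotinib, 14.2, 17.7 and 16.4 in hemin DMSO and 5.15, 4.31 and 5.10 in hemin nilotinib. Its hemin DMSO libraries were the 3 highest and its hemin nilotinib libraries the 3 lowest of the 12. The comparisons of nilotinib with hemin and of hemin without nilotinib share the hemin DMSO libraries, and the interaction draws on all 12, so their counts are not independent of each other. The count of downward differences was 6 when mock DMSO replicate 1, 2 or 3 or mock nilotinib replicate 2 or 3 was left out.

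NEAT1, NORAD and MALAT1 had the most counts of the lincRNAs with known roles. NEAT1 is the scaffold RNA of paraspeckles and MALAT1 an RNA of nuclear speckles, and their genes lie 52148 bases apart on chromosome 11. NEAT1 had 435, 287 and 295 CPM in mock DMSO, 930.2, 682 and 631 in mock nilotinib, 645, 324 and 541 in hemin DMSO and 903, 1514 and 2149.8 in hemin nilotinib. Nilotinib raised it without hemin (log2 fold change 1.14 ± 0.29 (SE), adjusted p = 0.0046) and with it (log2 fold change 1.60 ± 0.29 (SE), adjusted p = 1.8e-04), and its hemin nilotinib libraries spread over more than a 2-fold range. MALAT1 had 475, 383 and 367 CPM in mock DMSO, 449, 417 and 397 in mock nilotinib, 317, 187 and 276 in hemin DMSO and 565, 618 and 752 in hemin nilotinib. It was lower with hemin alone (log2 fold change -0.65 ± 0.18 (SE), adjusted p = 0.0062), higher with nilotinib under hemin (log2 fold change 1.31 ± 0.18 (SE), adjusted p = 1.2e-05) and was not called for nilotinib without hemin (log2 fold change 0.05 ± 0.18 (SE), adjusted p = 0.86), where the groups overlapped.

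NORAD, a single-exon RNA that sequesters PUMILIO proteins and is induced by DNA damage, had 435, 446 and 424 CPM in mock DMSO, 390.0, 426 and 446 in mock nilotinib, 775, 525 and 759.7 in hemin DMSO and 478, 595 and 575 in hemin nilotinib. It was called for hemin without nilotinib (log2 fold change 0.66 ± 0.16 (SE), adjusted p = 0.002), against the direction of most lincRNAs, and in no other comparison. LINC00467, the other member of the p53 and growth arrest list, was higher with nilotinib in mock cells (log2 fold change 0.78 ± 0.24 (SE), adjusted p = 0.014) and was not called with nilotinib under hemin (log2 fold change -0.46 ± 0.24 (SE), adjusted p = 0.1). The first call was lost without mock DMSO replicate 3 (adjusted p = 0.0813), and without hemin DMSO replicate 1 the second value was called (adjusted p = 0.0301).

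In 10 of the expressed lincRNAs the transcribed region contains microRNA genes, with 23 mature microRNAs of 14 genes in RefSeq. The libraries measure the host transcripts only, and mature microRNAs were not measured. Mature sequences (RefSeq, GRCh38.p14) of some of these host genes are shown to identify the products, with the seed, bases 2 to 8, in capitals. Those of FTX, MIR3681HG and MUC20-OT1 are left out.
miR-22-3p (host MIR22HG): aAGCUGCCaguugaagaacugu
miR-29c-3p (host MIR29B2CHG): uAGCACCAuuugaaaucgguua
miR-29b-3p (host MIR29B2CHG): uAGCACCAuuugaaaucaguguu
miR-210-3p (host MIR210HG): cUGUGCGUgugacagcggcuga
miR-4435 (hosts MIR4435-2HG and CYTOR): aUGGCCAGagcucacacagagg
miR-4458 (host MIR4458HG): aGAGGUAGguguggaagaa
let-7i-5p (host AC048341.1): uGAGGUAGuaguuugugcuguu
The miR-29 family members share the seed AGCACCA, and miR-4458 shares the seed GAGGUAG with let-7i-5p.

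The hosts of miR-22 and miR-29 were among the lincRNAs that hemin raised most. MIR22HG (miR-22 at chr17:1713914-1713935 and chr17:1713952-1713973) had 3.80, 4.46 and 4.90 CPM in mock DMSO and 39.4, 28.2 and 54.4 CPM in hemin DMSO (log2 fold change 3.21 ± 0.27 (SE), adjusted p = 1.4e-07). With nilotinib it had 4.84, 3.94 and 3.17 CPM and 10.1, 15.7 and 19.8 CPM (log2 fold change 1.93 ± 0.27 (SE), adjusted p = 0.0013). MIR29B2CHG, host of miR-29b-2 and miR-29c on chromosome 1, had 0.881, 1.22 and 0.615 CPM in mock DMSO and 36.4, 18.9 and 33.2 CPM in hemin DMSO (log2 fold change 5.04 ± 0.43 (SE), adjusted p = 1.6e-07), and 1.32, 0.904 and 0.634 and 3.39, 7.44 and 11.8 CPM with nilotinib (log2 fold change 2.98 ± 0.42 (SE), adjusted p = 0.0013). Both hosts rose in both hemin comparisons, and their hemin nilotinib libraries lay between the mock and the hemin DMSO libraries without overlap. Nilotinib lowered both under hemin (MIR22HG log2 fold change -1.42 ± 0.25 (SE), adjusted p = 1.4e-04; MIR29B2CHG log2 fold change -1.96 ± 0.37 (SE), adjusted p = 2.1e-04), and neither was called for nilotinib in mock cells.

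MIR210HG, host of the hypoxia-induced miR-210, moved in the other direction. It had 7.99, 6.63 and 4.02 CPM in mock DMSO, 7.51, 5.92 and 6.37 in mock nilotinib, 1.59, 1.60 and 0.736 in hemin DMSO and 9.37, 6.67 and 5.73 in hemin nilotinib. Hemin lowered it without nilotinib (log2 fold change -2.26 ± 0.32 (SE), adjusted p = 2.6e-05), and only the hemin DMSO libraries stood apart from the others. MIR4458HG had 5.77, 6.82 and 6.32 CPM in mock DMSO, 5.05, 4.05 and 4.24 in mock nilotinib, 3.92, 2.58 and 4.16 in hemin DMSO and 6.70, 8.67 and 8.32 in hemin nilotinib. It was lower with hemin in DMSO (log2 fold change -0.82 ± 0.22 (SE), adjusted p = 0.0044) and higher with hemin in nilotinib (log2 fold change 0.83 ± 0.21 (SE), adjusted p = 0.035), a call lost in 6 of 12 omissions of 1 library (up to 0.171). AC048341.1, the transcript around let-7i, was not called for nilotinib with hemin (log2 fold change 0.21 ± 0.44 (SE), adjusted p = 0.68) and higher for hemin without nilotinib (log2 fold change 1.56 ± 0.45 (SE), adjusted p = 0.0087), though not without hemin DMSO replicate 1 (adjusted p = 0.065). MIR210HG and MIR4458HG fell under the count threshold without mock DMSO or without hemin nilotinib, and AC048341.1 without hemin nilotinib.

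CYTOR and MIR4435-2HG, on both arms of chromosome 2, are related copies, with 11.7% and 13.4% of their 150-base words also present in other genes, and both hold a copy of miR-4435. CYTOR, linked to growth and the cytoskeleton, had 49.3, 59.8 and 52.02 CPM in the hemin DMSO libraries and 96.96, 213 and 289 CPM in those with nilotinib (log2 fold change 1.89 ± 0.28 (SE), adjusted p = 1.8e-05). MIR4435-2HG had 61.01, 39.2 and 46.9 and 69.8, 111 and 153 CPM (log2 fold change 1.19 ± 0.23 (SE), adjusted p = 2.7e-04). The groups did not overlap in either gene. In mock cells CYTOR was called for nilotinib (log2 fold change 0.93 ± 0.27 (SE), adjusted p = 0.01) and MIR4435-2HG was not (log2 fold change 0.27 ± 0.22 (SE), adjusted p = 0.35). The CYTOR call was lost without mock DMSO replicate 1 or mock nilotinib replicate 3 (adjusted p up to 0.0526). The difference between the genes was not tested, and reads may be split between the copies.

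Other lincRNAs linked to growth did not share 1 pattern. UCA1, first described in bladder cancer, had 48.9, 64.7 and 74.02 CPM in mock DMSO, 76.1, 90.7 and 92.8 in mock nilotinib, 9.01, 16.4 and 13.4 in hemin DMSO and 86.1, 82.5 and 89.98 in hemin nilotinib. It fell with hemin in DMSO (log2 fold change -2.27 ± 0.20 (SE), adjusted p = 1.6e-07) and not in nilotinib (log2 fold change -0.01 ± 0.18 (SE), adjusted p = 0.99), a called difference (2.27 ± 0.27, adjusted p = 2.6e-05). PVT1, which lies next to the MYC oncogene and is often amplified with it, had 49.3, 63.6 and 57.1 CPM in mock DMSO, 21.3, 24.6 and 25.4 in mock nilotinib, 29.9, 49.7 and 32.8 in hemin DMSO and 22.4, 25.6 and 24.3 in hemin nilotinib. Nilotinib lowered PVT1 without hemin (log2 fold change -1.25 ± 0.17 (SE), adjusted p = 2.7e-05) and with it (log2 fold change -0.63 ± 0.17 (SE), adjusted p = 0.0045), and all 6 nilotinib libraries were below all 6 DMSO libraries. MYC mRNA was also lower, at 59.1 ± 4.21 against 268 ± 30.6 CPM without hemin and 81.2 ± 6.90 against 224 ± 15.4 CPM with it (SD, n = 3; adjusted p = 3.7e-09 and 8.1e-08). EPB41L4A-AS1 was called in none of the comparisons, though 9 of 19 alternatives called it lower for hemin without nilotinib (adjusted p = 0.086), and its fold changes were between -0.54 and -0.06 on the log2 scale.

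FTX, a lincRNA of the X inactivation centre that hosts miR-374 and miR-545, was called higher in each of the 4 comparisons between groups. It had 10.3, 7.68 and 7.44 CPM in mock DMSO, 18.2, 13.6 and 12.2 in mock nilotinib, 25.1, 13.3 and 18.5 in hemin DMSO and 21.4, 28.4 and 38.2 in hemin nilotinib, with log2 fold changes of 0.79 and 0.63 for nilotinib without and with hemin and 1.16 and 0.999 for hemin without and with nilotinib. The mock DMSO libraries were the 3 lowest, and the hemin DMSO libraries overlapped with those of both nilotinib groups. Only the call for hemin without nilotinib held with each library left out. The others were lost in 3, 4 and 4 of 12 omissions for nilotinib without hemin, nilotinib with hemin and hemin with nilotinib (adjusted p up to 0.0895, 0.157 and 0.137), always by leaving out a library of the groups compared. Of its exonic bases, 44.3% overlap JPX on the opposite strand. The XIST RNA is also among the 215 genes, and its values are not given here. None of 11 listed genes of imprinted loci was a member. KCNQ1OT1, the only one of them with enough counts, is labelled antisense in the table.

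Compared per kilobase of the deposited gene length, the highest level belonged to a short transcript. AL365226.2, 397 bases of exon at chr6:70394887-70399417, averaged 376 CPM per kilobase over the 12 libraries, ahead of AC079466.1 (193), AL713998.1 (156), AC079801.1 (131) and NORAD (97.9). MALAT1 averaged 49.1 CPM per kilobase. AL365226.2 had 97.05, 111 and 113 CPM in mock DMSO, 115, 152 and 160.0 in mock nilotinib, 179.8, 222 and 197 in hemin DMSO and 117, 172 and 156 in hemin nilotinib. Nilotinib raised it in mock cells (log2 fold change 0.41 ± 0.16 (SE), adjusted p = 0.047) and lowered it under hemin (log2 fold change -0.43 ± 0.16 (SE), adjusted p = 0.027). The call in mock cells was lost in 8 of 12 omissions of 1 library (adjusted p up to 0.227), and the call under hemin without hemin DMSO replicate 2 or hemin nilotinib replicate 1 (up to 0.123) and without composition factors. AL713998.1, a 2-block transcript on chromosome 6, had 524, 568 and 511 CPM in mock DMSO, 245, 199 and 191 in mock nilotinib, 82.7, 157 and 100.4 in hemin DMSO and 162, 137 and 125 in hemin nilotinib, and the mock DMSO libraries were the 3 highest. AC079801.1 was called for nilotinib and for hemin only where the other agent was present (log2 fold change 0.70 ± 0.19 (SE), adjusted p = 0.0039; log2 fold change 0.93 ± 0.19 (SE), adjusted p = 0.012), and the latter call was lost without replicate 2 of mock nilotinib or hemin nilotinib (adjusted p up to 0.0725). LINC01029, called only for hemin without nilotinib (log2 fold change -0.36 ± 0.12 (SE), adjusted p = 0.02), had the smallest changes of the 10 lincRNAs highest per kilobase, with 60.8 to 97.8 CPM over the 12 libraries, and its call was lost without replicate 3 of mock DMSO or hemin DMSO (adjusted p up to 0.123).

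The nearest protein-coding gene could be tested for 181 of the lincRNAs. Across these pairs the fold changes of lincRNA and neighbour were weakly related, with Spearman's rho of 0.27 for nilotinib with hemin, 0.31 for nilotinib without hemin, 0.19 for hemin without nilotinib and 0.33 for hemin with nilotinib. Across 11646 pairs of protein-coding neighbours the values were 0.19, 0.21, 0.16 and 0.13. The pairs of each comparison come from the same libraries and share their depth, and genes are not independent replicates. Of 141 lincRNAs called for nilotinib with hemin, the neighbour was called in the same direction for 63, in the opposite direction for 45 and not called for 33.

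In 39 pairs the start sites lay within 1000 bases on opposite strands. There rho was -0.01 for nilotinib with hemin. Of the 31 lincRNAs called in these pairs, 6 had a coding partner called in the same direction and 18 a partner called in the opposite direction. SLC2A1-AS1 and SLC2A1, which rose together, were among the 6. MIR22HG, which was lower with nilotinib under hemin, was among the 18, since WDR81, whose start is 651 bases away, was higher (78.1 ± 12.2 CPM in hemin nilotinib against 11.7 ± 2.23 CPM in hemin DMSO, SD, n = 3; adjusted p = 2.4e-09). Of these 39 lincRNAs, 27 were higher and 4 lower with nilotinib under hemin, beside 135 and 30 of all 215.

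With nilotinib under hemin more lincRNAs were higher than lower in each class of structure and abundance examined. In that comparison 45 of 61 single-block lincRNAs were higher and 5 lower, and of the 154 with 2 or more blocks 90 were higher and 25 lower. Among the 49 with a mean count of at least 1000, 32 were higher and 4 lower. Among the 146 without exon overlap 93 were higher and 18 lower, a median log2 fold change of 1.05, close to the 1.04 over all 215. With hemin alone 77 of these 146 were lower and 22 higher.

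RefSeq promoters, 250 bases before to 50 after a start, could be matched for 68 of the lincRNAs, 46 of them within 100 bases of the GENCODE start. Sequence patterns were searched on both strands as a description. TGACNNNGC, the core shared by binding sites of NRF2 and of the heme-sensing repressor BACH1, which can overlap the AP-1 pattern TGACTCA, occurred in 18 of 68 (26.5%), against 13.3% of all 34796 promoters in the table. The GATA patterns AGATAA or TGATAA occurred in 8 (11.8%, against 16.4%), and the KLF1 pattern CCCACCC in 12 (17.6%, against 19.5%). Patterns of STAT, heat shock factor, ATF4 and MYC/MAX occurred in 8.82%, 5.88%, 5.88% and 2.94%, against 7.67%, 6.79%, 3.63% and 7.2%. With nilotinib under hemin, TGACNNNGC occurred in 25% of 48 promoters of higher and 25% of 8 of lower lincRNAs. With hemin in DMSO it occurred in 40% of 10 of higher and 22.9% of 35 of lower ones. The promoters of LINC00346 and LINC00942, which rose more with hemin where nilotinib was present than where it was not, hold TGACNNNGC 2 times and once, shown in capitals on the strand of the gene (GRCh38.p14, RefSeq; LINC00346 at chr13:110870259-110870558, - strand, listed there as PRECSIT, and LINC00942 at chr12:1500241-1500540, + strand).
LINC00346: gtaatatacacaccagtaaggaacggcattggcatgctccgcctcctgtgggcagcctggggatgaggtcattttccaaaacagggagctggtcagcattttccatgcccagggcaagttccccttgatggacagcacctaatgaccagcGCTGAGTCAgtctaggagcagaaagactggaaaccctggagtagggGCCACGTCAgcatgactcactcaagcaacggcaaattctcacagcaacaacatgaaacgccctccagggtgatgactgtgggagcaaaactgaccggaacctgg
LINC00942: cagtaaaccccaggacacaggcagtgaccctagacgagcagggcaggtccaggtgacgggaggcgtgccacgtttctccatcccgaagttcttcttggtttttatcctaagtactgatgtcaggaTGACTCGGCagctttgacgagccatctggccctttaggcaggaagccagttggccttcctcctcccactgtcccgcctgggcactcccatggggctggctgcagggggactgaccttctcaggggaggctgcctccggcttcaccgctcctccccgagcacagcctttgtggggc
In the LINC00346 window both matches read on the opposite strand, starting at positions 151 and 197 of 300 counted from the 5′ end. The single match in LINC00942 starts at position 126. The promoters of MIR22HG, SLC2A1-AS1 and HRAT92, whose levels also changed strongly, hold no match to these letters, which says nothing of the factors themselves. NORAD and MALAT1 hold 1 and 2 matches.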

How the data were processed

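RNA-seq of K562 cells was analysed in 12 libraries, 3 for each of 4 conditions. The authors deposited raw read counts per gene (150-base paired reads), made by their sequencing service. The submitters' notes name GRCh38.p12, DESeq2 and DESeq. The aligner, the counter and the use of strand are not given in the sources used here. The deposited gene lengths were used only for levels per kilobase, and the FPKM tables were not used.

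The tests were run with edgeR 4.0.16 in R 4.3.3 (filterByExpr with a minimum count of 10 and a minimum total of 15, 20821 genes kept, TMM scaling, quasi-likelihood F-test, 1 mean per group over all 12 libraries). All tests were two-sided with Benjamini-Hochberg adjustment over all genes tested, and a call needed an adjusted p under 0.05. Self-tests were run on simulated data. Positions, overlaps, nearest coding genes and 150-base words came from GENCODE 29, in which all 215 lincRNAs matched, and promoter and microRNA sequences from RefSeq.

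Genes were named by a rule: the 10 highest per kilobase, up to 5 of the largest rises and falls in each of 5 comparisons, and the members of 8 gene lists. AC048341.1, MIR4458HG and the genes in counts of 5 or fewer were named after their values were seen. The lincRNAs and lists were chosen with earlier results of these data known. Alternatives were other scaling factors, no count filter, DESeq2 1.42.0, a 2-fold requirement, a count threshold of 400, genes without exon overlap, the libraries of each comparison alone, a replicate block and leaving out each library. The deviations of same-numbered libraries correlated above 0.1 in all 3 pairs for a single pair of groups, hemin nilotinib and mock nilotinib (0.263, 0.199 and 0.254), so replicate numbers were taken as pairs there. Depth was 33457078 to 50506990 counts, and 3 counts correspond to 0.0540 to 0.0957 CPM, which covers counting error only.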

Additional observations from a re-analysis of the deposited data

Results flagged for a closer look

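The nilotinib effect differed between hemin-treated and mock cells for 100 of the 215 expressed lincRNAs by the interaction term, beside 30.1% of all tested genes. Among the lincRNAs named, the effect with hemin minus the effect without it, on the log2 scale, was 3.25 for AC005307.1, 2.63 for LINC00342, 2.62 for LINC00997, 2.60 for AF127936.1 and 2.53 for AC079466.1. AF127936.1 was lower with nilotinib in both settings, so its positive value marks a smaller fall under hemin (-5.52 without and -2.92 with it).

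In the other direction the differences were -2.98 for AC103591.4, -2.06 for MIR29B2CHG, -1.28 for MIR22HG, -1.24 for LINC00467 and -1.21 for APTR. The first 3 of these were not called for nilotinib in mock cells, where AC103591.4 had at most 0.501 CPM in any library. Groups of 3 libraries were not tested for single outlying libraries.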

How the results depend on the processing

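No called value of a named lincRNA changed sign under any alternative, while 18 values that were not called did. Of 153 values of named lincRNAs 109 kept their side of the threshold in all alternatives. The counts that moved by more than 1.5 times, beyond leaving out libraries, were as follows. With a count threshold of 400, fewer genes entered: nilotinib with hemin had 70 higher and 18 lower, nilotinib without hemin 52 and 20, hemin without nilotinib 20 and 61, hemin with nilotinib 16 higher, and the interaction 51 and 6. Among genes without exon overlap, nilotinib with hemin had 18 lower, hemin without nilotinib 22 higher, hemin with nilotinib 15 higher and the interaction 6 lower. With 2-fold required, nilotinib without hemin had 53 higher and 18 lower, hemin without nilotinib 64 lower, hemin with nilotinib 1 lower and the interaction 5 lower. Among the 180 genes at the threshold without any 1 group (an alternative chosen after seeing the data) hemin with nilotinib had 19 higher. Without composition factors hemin with nilotinib had 16 higher and the interaction 6 lower, and the cause was not tested. Over all tested genes that scaling moved the share of higher genes among those called from 48% to 33.9% for hemin without nilotinib, from 60.7% to 49.2% for hemin with nilotinib and from 56.7% to 73.3% for the interaction. Hemin with nilotinib had 47 higher and 10 lower when the low-count filter was dropped, 9 lower by DESeq2 and 6 higher and 0 lower by edgeR in its 6 libraries alone, where 17 were lower at an unadjusted p under 0.05. The replicate block gave 10 lower there, and 12 lower with the 6 libraries alone (an alternative chosen after seeing the data). It moved no other count by more than 1.5 times. Leaving out 1 library at a time gave, as higher and lower, 128 to 148 and 26 to 31 for nilotinib with hemin, 71 to 102 and 26 to 39 for nilotinib without hemin, 29 to 42 and 93 to 118 for hemin without nilotinib, 5 to 60 and 0 to 11 for hemin with nilotinib, and 76 to 113 and 6 to 14 for the interaction. Outside mock nilotinib and hemin nilotinib the correlations of same-numbered libraries did not all pass 0.1. Pairs were not taken there, but their absence was not shown. Hemin cannot be told apart from the longer culture or, where nilotinib effects are compared, from the longer time after nilotinib was added. Strand use in counting is not known, and 3 libraries a group limit what could be called.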
